A study of Zea mays with 6 samples.

Results

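The 6 maize genes studied here carry names of wounding or pathogenesis proteins: wip1, pr5, prp2, prp4, chn1 and sip1. Their levels were compared between leaf tissue with and without chlorophyll. They were taken as every probe set paired with exactly 1 maize gene whose symbol or RefSeq synonym is one of these names, which gave 7 of the 17555 probe sets on the array, 2 of them for sip1, and 6 of the 1108 genes that could be named. The rule uses names alone, but the 6 names were picked with earlier results of these data known, so the counts below describe these genes and support nothing beyond them. All 6 arrays carried RNA of leaf 3 of the inbred line A661, grown at 15 °C for 3 weeks and then at 25 °C for 1 week under fluorescent light for 14 h a day. The distal section of that leaf had no chlorophyll (CL, 3 arrays) and the proximal section had chlorophyll (CC, 3 arrays, the control), and 2 cm of each next to the border between them were taken as biological replicates. The plants of both sections thus had the same cold and warm periods. How much of each section formed in either period was not tested, so the age of the tissue may differ between them. The lack of chlorophyll went with the distal position on all arrays, so these cannot be told apart, and the plants are of 1 inbred line.

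Plants answer wounding and infection by making proteins that slow the attacker. Proteinase inhibitors such as the product of wip1 block digestive enzymes, chitinases cut fungal cell walls, and thaumatin-like proteins, the PR-5 class, can damage fungal membranes. Jasmonate, ethylene and salicylate carry the signals that switch such genes on, and PR-1 and PR-5 proteins are widely used as markers of that response.

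Of the 6 genes, 5 rose in the section without chlorophyll while 1 fell. The rises ran from 2.64-fold for the chitinase gene chn1 to 17.6-fold for the proteinase inhibitor gene wip1, and the fall was 1.33-fold, for prp2. By probe set, 6 of 7 rose and 1 fell at a limma adjusted p under 0.05 over all probe sets. Of the whole array, 15.9% of probe sets rose and 15.2% fell by the same test, and of the 1452 probe sets paired with 1 gene 18.1% rose and 18.7% fell. The 6 rises were each at least 2-fold, a size that 3.11% of all probe sets reached upwards and 2.56% downwards. The median change of the 7 was 2.09 on the log2 scale (CL minus CC), against -0.05 over all probe sets. The sections did not overlap in any of the 7, which was also the case in 49.6% of all probe sets, and all CL arrays lay above all CC arrays in 6 of the 7, against 22.9%. Since RNA came from whole tissue, fewer cells of a type and less RNA per cell cannot be told apart.

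Array medians lay between 6.29 and 6.36 on the log2 scale. The leaf identity of both sections was checked on marker genes. Photosynthesis genes of mesophyll and bundle sheath stayed bright in both sections: pep1 averaged 13.3 in CL and 13.2 in CC, me3 13.2 and 13.1, and rbcs1 12.8 and 12.9. Of 16 marker genes matched, 2 rose and 6 fell in CL. The rises were ppt1, a plastid phosphoenolpyruvate transporter, and PDK1, also named pdlk1, which was matched by symbol alone and is another gene than the mesophyll enzyme gene pdk1. The falls were the epidermal wax gene gl1 (-1.73), the phloem loading gene sut1 (-0.87), the photosystem I gene psad1 (-1.74), lhcb5 (-0.58), gl15 (-0.33) and rca1 (-0.32). The last is a bundle sheath marker. Other markers of the epidermis and wax group (gl8, -0.11) and the vascular group (sus1, 0.33, and sh1, -0.18) were not called. The part of these shifts in the values of the defence genes was not tested.

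**Figure D1:**
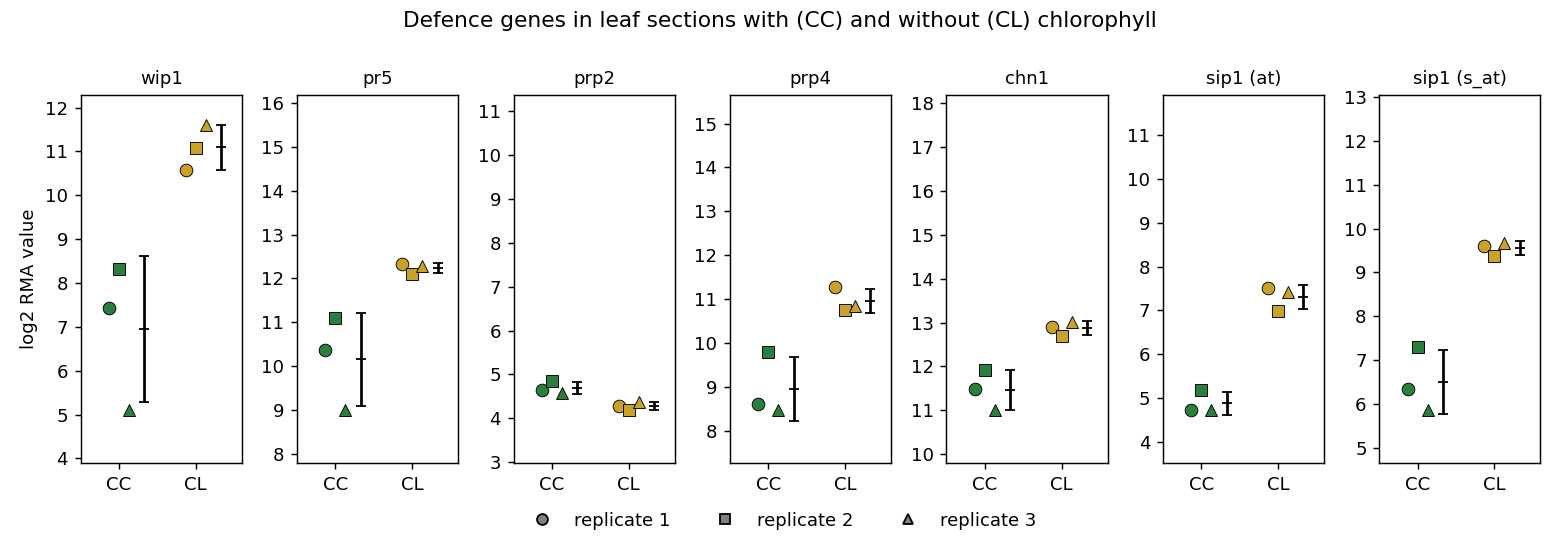
Log2 RMA value of each defence probe set (y axis, the same span in every panel) on the 3 CC and 3 CL arrays, with circles, squares and triangles for replicates 1, 2 and 3, and the mean with its SD beside them. CL points lie above all CC points in 6 panels and below them in that of prp2, and CC replicate 2 is the highest CC point in every panel.

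The gene wip1 (NCBI gene 542729) encodes a wound-induced proteinase inhibitor of the Bowman-Birk type. Its log2 values in CL were 10.58, 11.07 and 11.61 in replicates 1, 2 and 3, and in CC they were 7.43, 8.32 and 5.10. Every CL array was above every CC array, with a gap of 2.26 between the lowest CL and the highest CC value, while the CC arrays themselves spanned 3.22. The CC mean of 6.95 ± 1.66 rose to 11.09 ± 0.51 in CL (SD over 3 arrays). The log2 change was 4.14 (SE 0.76, 95% interval 2.33 to 5.95; limma adjusted p = 0.00935). This was the rise ranked 4 among all 17555 probe sets. The size of the change varied with the CC array it was measured from: the CL mean lay 6.82-fold above CC replicate 2 and 63.7-fold above CC replicate 3. Without CC replicate 3 the log2 change was 3.22, and without CC replicate 2 it was 4.83.

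Both pr5 and sip1 carry names of thaumatin-like proteins. The gene pr5 (NCBI gene 542720) is named for the PR-5 class. It read 12.32, 12.10 and 12.29 in CL replicates 1, 2 and 3 and 10.36, 11.10 and 8.99 in CC. The CL arrays agreed closely, with an SD of 0.12, whereas the CC arrays had an SD of 1.07, 8.96 times as large. The change was 2.09 on the log2 scale (SE 0.48, 95% interval 0.96 to 3.21), with a limma adjusted p of 0.0183. The call was lost without CL replicate 2 (change 2.15, limma adjusted p = 0.0522) or CL replicate 3 (change 2.06, limma adjusted p = 0.0652), though the size of the change hardly moved. From CC replicate 2 alone the CL mean differed by 2.19-fold, and from CC replicate 3 by 9.48-fold.

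The other is sip1 (NCBI gene 542299), whose synonym Zlp is the name of a zeamatin-like protein; zeamatin is an antifungal protein of maize seed. It was read by 2 probe sets. One has the suffix _s_at, with which the array's maker marks probes that can match transcripts of more than 1 gene, so its signal may include a related gene. That probe set gave 9.60, 9.39 and 9.68 in CL and 6.33, 7.30 and 5.86 in CC replicates 1, 2 and 3. The other probe set gave 7.51, 6.98 and 7.42 in CL and 4.72, 5.19 and 4.72 in CC.

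Both probe sets of sip1 rose in CL with clear gaps between the sections. The log2 change was 3.06 for the _s_at probe set (SE 0.34, 95% interval 2.26 to 3.85, limma adjusted p = 0.00234) and 2.43 for the other (SE 0.19, 95% interval 1.99 to 2.87, limma adjusted p = 0.00119). The CC arrays had an SD of 0.73 in the former and 0.27 in the latter. In the latter, CC replicates 1 and 3 had the identical value, and its CC mean lay at the 34.8th percentile of all probe sets. Identical values on at least 2 arrays occurred in 591 of all probe sets (3.37%). RMA compresses differences at the dim end of the arrays; its part in the smaller change of this probe set was not tested.

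The gene chn1 (NCBI gene 542525) also carries the name chitinase. Its values were 12.90, 12.69 and 13.02 in CL and 11.49, 11.91 and 11.00 in CC replicates 1, 2 and 3. The sections were separated by 0.78, less than the range of 0.91 within CC. The mean rose from 11.47 ± 0.46 to 12.87 ± 0.16 (SD over 3 arrays). The difference was 1.40 on the log2 scale (SE 0.22), with a limma adjusted p of 0.00613. Of the 5 genes that rose, chn1 had the smallest change and the brightest signal, its CL mean lying at the 99.8th percentile of all probe sets. The other probe sets that share the stem of its identifier were lower in CL, and some of these falls were called. The naming rule did not take them as chn1, and whether they read the same gene was not tested.

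The gene prp4 (NCBI gene 542352) has PR-1 among its names, the class of small secreted proteins used as markers of infection. It read 11.28, 10.75 and 10.84 in CL and 8.60, 9.78 and 8.46 in CC replicates 1, 2 and 3. CC replicates 1 and 3 lay close together, and CC replicate 2 stood 1.32 above the lower of them. The log2 change was 2.01 (SE 0.35, 95% interval 1.18 to 2.83; limma adjusted p = 0.00772). Its probe set also has the suffix _s_at, so a related gene may share the signal.

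The gene prp2 (NCBI gene 542195), named as a pathogenesis-related protein, was the 1 member that fell. It read 4.28, 4.18 and 4.37 in CL and 4.64, 4.85 and 4.57 in CC. The sections were apart by 0.20, and both means lay in the lower part of the array, at the 28.7th percentile of all probe sets in CL and the 32.2nd in CC. The log2 change was -0.41 (SE 0.10), with a limma adjusted p of 0.0258. Without CL replicate 1, CL replicate 2, CL replicate 3 or CC replicate 2 the call was lost, with a limma adjusted p between 0.0548 and 0.0812, while the change stayed between -0.46 and -0.33. Quantile normalization of the deposited values gave a change of -0.29 (limma adjusted p = 0.0970), and centring on array medians gave -0.46 (limma adjusted p = 0.0216). No scanner file was used here, so whether prp2 was above background was not tested.

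**Figure D2:**
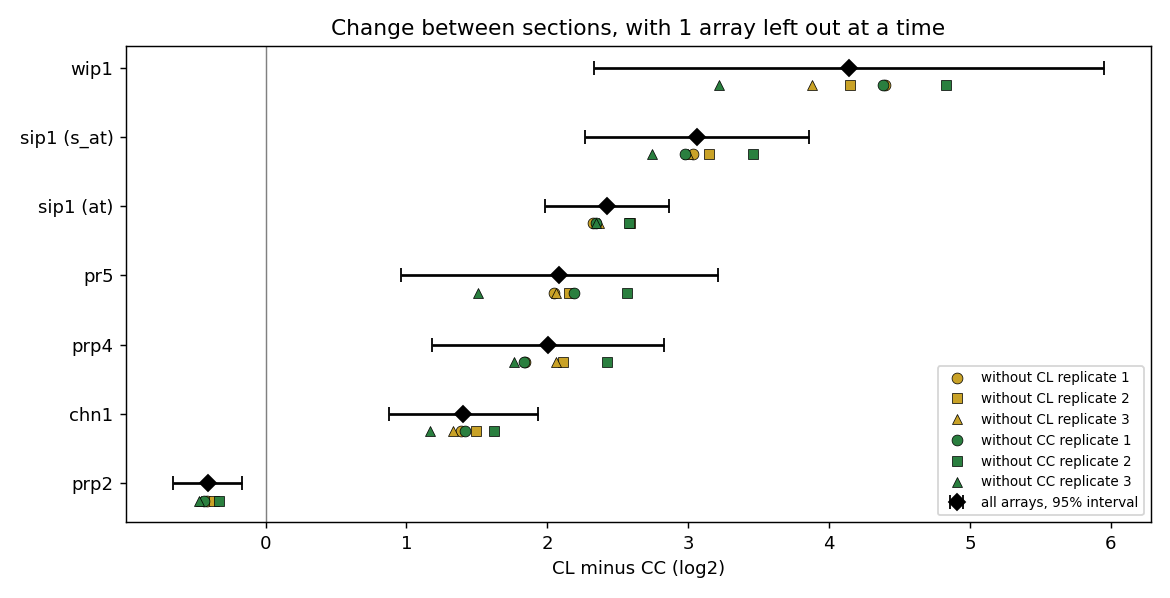
Log2 change (CL minus CC, x axis) of each defence probe set, with the 95% interval of the fit to all arrays (black diamonds) and, below it, the change with 1 array left out (circles, squares and triangles for replicates 1, 2 and 3, in gold for CL and green for CC). Leaving out CC replicate 3 gives the smallest rise in 5 of the 6 probe sets that rose and leaving out CC replicate 2 the largest in 5 of the 6; for wip1 these are 3.22 and 4.83.

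In order of change the genes ran wip1, sip1, pr5, prp4, chn1 and prp2. The intervals of neighbours in this order overlapped from wip1 to chn1, and the differences between members were not tested. Against CC replicate 2 alone the 6 rises ranged from 0.96 (chn1) to 2.77 (wip1) on the log2 scale, and against CC replicate 3 alone from 1.87 (chn1) to 5.99 (wip1). The members thus lay closer together when read against the CC array with the highest defence values.

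The spread among CC replicates had the same pattern across the genes. CC replicate 2 was the highest CC array in 7 of 7 probe sets, against 28.6% of all probe sets. CC replicate 3 was the lowest in 6 of 7, against 35% of all probe sets. In the seventh, the probe set of sip1 that is not _s_at, CC replicate 3 was tied with CC replicate 1. The full order of replicate 2 over 1 over 3 was therefore found in 6 of 7, and in 13.7% of all probe sets. In wip1 the deviations from the CC mean were 0.48, 1.37 and -1.85 in replicates 1, 2 and 3. In pr5 they were 0.21, 0.95 and -1.16, and in chn1 0.03, 0.44 and -0.47. In prp4 they were -0.35, 0.83 and -0.49, in prp2 -0.04, 0.16 and -0.12, and in the _s_at probe set of sip1 -0.16, 0.80 and -0.64. CC replicate 1 lay above the section mean in 3 of the 7 probe sets.

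The order was found in prp2 as well as in the genes that rose. The CC SD of prp2, 0.145, was however near the median of 0.1345 over all probe sets. For the 6 rising probe sets a high value in CC replicate 2 placed that array nearest to CL, whereas for prp2, which was lower in CL, it placed the array farthest from CL. In the array as a whole, CC replicate 1 was the one nearest CL. On the first principal component of all probe sets without the 7, which held 71.8% of the variance, the CC arrays lay at 21.9, 35.7 and 47.7 in replicates 1, 2 and 3 and the CL arrays at -24.4, -40.3 and -40.6. Among the 2789 probe sets that rose in CL, CC replicate 1 was the highest CC array in 68.6% and CC replicate 2 in 19.4%. Of the 546 that rose at least 2-fold, 20.3% had CC replicate 2 highest and 12.8% had the full order of the defence genes. CC replicate 3 was the lowest CC array in 52.9% of the 2789 and in 46% of the 546, against 35% of all probe sets. The members' order in CC was thus not the usual one of the probe sets that rose, by its highest array rather than its lowest.

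Probe sets with a wide spread in CC had the members' order less often than those of the whole array. A range of at least 1 log2 unit among the CC arrays was found in 659 probe sets, including 4 of the 7 (wip1, pr5, prp4 and the _s_at probe set of sip1). CC replicate 2 was the highest in 15.6% of the 659, against 28.6% of all probe sets, and 8.04% had the full order, against 13.7%. Ranked among all probe sets by CC SD, wip1 stood at the 99.9th percentile, pr5 at the 99.5th and chn1 at the 94.9th. Both prp4 and the _s_at probe set of sip1 stood at the 98.4th, the other probe set of sip1 at the 84.4th and prp2 at the 54.4th. The CC SD exceeded the CL SD in 6 of 7 members, against 53.9% of all probe sets.

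In CL the order was another, and 6 of the 7 probe sets varied less than in CC. The probe set of sip1 that is not _s_at did not, with an SD of 0.28 in CL and 0.27 in CC. Ranked among all probe sets by CL SD, the members ran from the 34.6th percentile (prp2) to the 97.0th (wip1). CL replicate 2 was the lowest CL array in 6 of 7 probe sets (34.2% of all), the exception being wip1, which was lowest in CL replicate 1. The highest CL array was replicate 3 in 4 probe sets and replicate 1 in 3. Deviations from the CL mean stayed between -0.51 and 0.52, and both ends belonged to wip1. The members share each array, so the 7 orders are not independent of each other, and 3 arrays per section limit what an order can show.

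**Figure D3:**
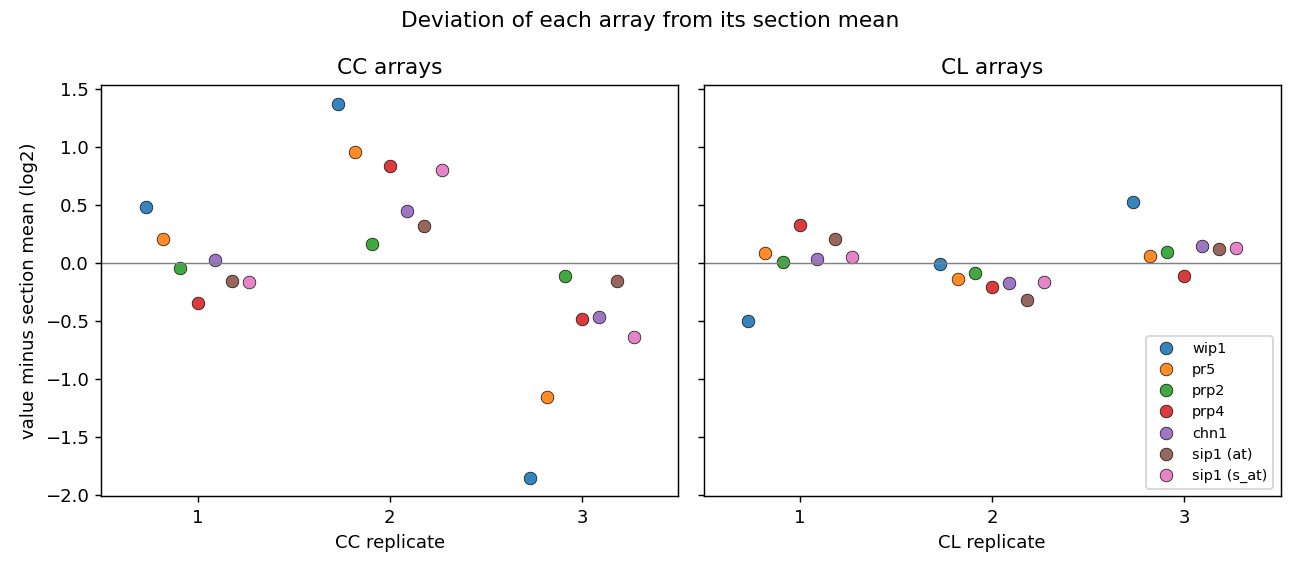
Deviation of each array from the mean of its section (y axis, log2) for the 7 defence probe sets (colours, offset sideways for legibility), by replicate number, for CC on the left and CL on the right. All points of CC replicate 2 lie above 0 and all of CC replicate 3 below 0, and the CL points spread less.

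Other defence genes were called about as often as the probe sets of the whole array. A list of further defence genes, written from names, matched 22 probe sets of 20 genes, of which 2 rose, 4 fell and 16 were not called, so 27.3% were called against 31.1% of all probe sets. Its median change was -0.08 on the log2 scale. The rises were cc7, a cystatin that inhibits cysteine proteinases, at 0.87 (SE 0.18, limma adjusted p = 0.0139), and hir1, named for the hypersensitive reaction, at 0.79 (SE 0.10, limma adjusted p = 0.00327). Both are below the smallest of the 6 rises.

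The largest fall on that list was in benzoxazinoid synthesis, the pathway of the antifeedant compounds of young maize. The gene bx6, which encodes a dioxygenase of the pathway, read 7.66, 6.39 and 7.01 in CL and 8.27, 8.39 and 9.41 in CC in 1 probe set, a log2 change of -1.67 (SE 0.40, limma adjusted p = 0.0208). Its second probe set changed by -1.19 (limma adjusted p = 0.0195). In both, CC replicate 3 was the highest CC array, the one in which the 6 genes were lowest. It was also the highest CC array in 34.9% of all probe sets. The peroxidase gene pox2 changed by -0.98 (limma adjusted p = 0.0362), with CC values of 4.15, 3.59 and 4.78 in replicates 1, 2 and 3. Its CL values of 3.06, 3.23 and 3.29 were dim, their mean lying at the 14.1st percentile of all probe sets. The sixth call was hir2 at -0.37, named after its value was seen. Without CL replicate 3, 0 of the list fell by limma (4 at an unadjusted p under 0.05), and without CL replicate 2 there was 1 fall. In the same fits the falls over the whole array went from 2668 to 1082 and 1484.

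Of the genes that did not pass, 3 were chosen for mention after their values were seen. The gene bx1, which makes the first intermediate of the same pathway, had a log2 change of -1.28 (SE 0.74). The gene tps6 read 2.99, 5.89 and 2.61 in CC replicates 1, 2 and 3 and 5.81, 3.43 and 3.86 in CL, so that CC replicate 2 was above the highest CL array. The beta-glucosidase gene glu1 read 8.37, 9.13 and 7.59 in CC. Both tps6 and glu1 had the CC order of the 6 genes, as did cc7. On the whole list CC replicate 2 was the highest CC array in 9 of 22 probe sets (40.9%, against 28.6% of all). The full order was found in 4 of 22 (18.2%, against 13.7% of all).

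Hormone genes linked to wounding were also called at a share near that of the whole array. Of 19 probe sets of 14 genes on a jasmonate and ethylene list, 3 rose, 2 fell and 14 were not called (26.3% called against 31.1% of all), with a median of -0.07. The rises were opr1, an oxophytodienoate reductase gene, at 2.27 (SE 0.35, limma adjusted p = 0.00547), aos1, the allene oxide synthase gene of jasmonate synthesis, at 0.97, and the ethylene receptor gene etr2 at 0.56, of which a second probe set did not pass (-0.07). The falls were aoc1, the allene oxide cyclase gene, at -0.68, with a second probe set at -0.31 that did not pass, and opr7, a reductase gene, at -0.46. The gene opr1 read 8.76, 7.52 and 7.36 in CL and 5.64, 5.69 and 5.48 in CC, a CC range of 0.22 against 3.22 in wip1 and 2.11 in pr5. CC replicate 2 was the highest CC array in 8 of 19 probe sets (42.1%, against 28.6% of all), and the full order occurred in 2 (10.5%, against 13.7%).

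**Figure D4:**
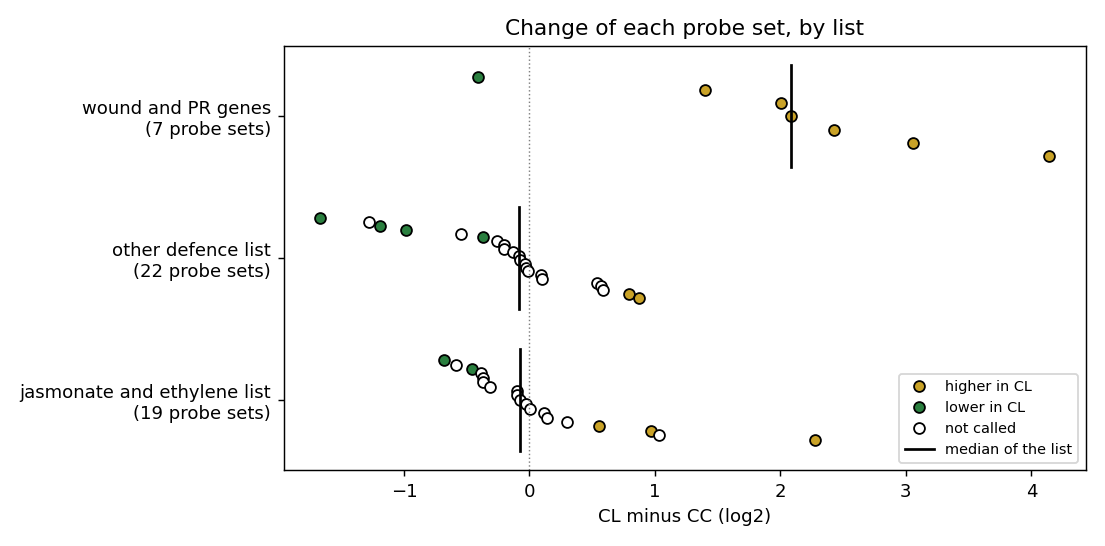
Log2 change (CL minus CC, x axis) of each probe set of the 6 wound and pathogenesis-related genes, of the other defence list and of the jasmonate and ethylene list, with gold for higher in CL, green for lower, white for not called and a line at each list's median. The medians are 2.09, -0.08 and -0.07.

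The genes most like each member were sought among 980 genes with an informative name, by the root mean square difference in log2 over the 6 arrays after each profile was centred on its own mean. For pr5 the nearest were prp4 (0.38), the gene LON2 (0.47) and chn1 (0.50), against a root mean square of 1.21 for the profile of pr5 itself. For wip1 they were sip1 (0.86), the alternative oxidase gene aox3 (0.96) and MRP1, also named mrpa1 (1.06), against 2.30 for its own profile.

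For sip1 the nearest were the pyruvate decarboxylase gene PDC, also named pdc3 (0.45), MRP1 (0.49) and aox3 (0.50), against 1.59 for its own profile. For prp4 they were the glutathione S-transferase gene gst23 (0.33), the cell wall invertase gene incw1 (0.37) and pr5 (0.38), against 1.10. For chn1 they were MST1, CRH and the ribosomal protein gene arpp2a-3, each at 0.25 against 0.76. For prp2 they were HP3 (0.06), the zein gene dzs18 (0.06) and the sigma factor gene sig6 (0.08) against 0.23. Members were thus among the nearest genes of wip1, pr5 and prp4, and not of sip1, chn1 or prp2.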

How the data were processed

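The authors deposited RMA values on a log2 scale. The submitters' processing notes list RMA, limma and Affymetrix Expression Console, and the versions were not given in the sources used here. Among its steps, RMA includes quantile normalization across arrays. The table held 17555 probe sets and 6 arrays, with 0 unused columns. From each plant section 250 ng of RNA were labelled from the 3' end, per the labels' protocols. Scanner files were not used here, so no probe set was tested against background.

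Probe sets were named through the platform annotation and RefSeq gene IDs: 1452 had 1 gene, 1 had several and 16102 had none named here. The 1452 covered 1108 genes, of which 1060 were in the RefSeq table. The sections were compared (CL minus CC) by lmFit and eBayes of limma 3.58.1 in R 4.3.3, on all probe sets, with no filter or block and Benjamini-Hochberg adjustment over all of them. A permutation test of 3 against 3 arrays cannot give a p under 0.1. Members and lists were chosen with earlier results of these data known, and matched by whole symbol or synonym; the other defence list leaves out the 6 genes. Named were all members, the 5 largest called changes of each list and the 3 nearest profiles of each member; others are marked where they appear. The code was tested on simulated data. Pairs of arrays within a section differed with an SD of 0.251 to 0.387, so none was a duplicate. Alternatives were a replicate block, intensity trend, robust variance, median centring, further quantile normalization, leaving out the dimmest 25%, 1 probe set per gene, and leaving out each array.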

Additional observations from a re-analysis of the deposited data

How the results depend on the processing

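No alternative turned the direction of a member. The probe sets of wip1, prp4, chn1 and sip1 passed 0.05 under every alternative that gave them a value, with limma adjusted p up to 0.0431 for wip1. With 1 array left out, changes ran from 3.22 to 4.83 for wip1, 1.51 to 2.56 for pr5, -0.47 to -0.33 for prp2, 1.76 to 2.42 for prp4, 1.17 to 1.62 for chn1, and 2.74 to 3.46 and 2.32 to 2.59 for sip1. The labels do not say whether sections with the same replicate number came from the same plant. Deviations of same-numbered arrays correlated at -0.54, -0.35 and -0.39, below every other pairing of a CL with a CC array, so the numbers were not taken as positive pairs and whether they mark a shared source was not settled. With the replicate number as a block, 1020 probe sets rose and 850 fell, 5 members rose and 0 fell (1 at an unadjusted p under 0.05), pr5 (2.09) had a limma adjusted p of 0.0505 and prp2 (-0.41) of 0.104; 1 of the other defence list rose and 0 fell (4 unadjusted), and 0 of the jasmonate and ethylene list fell (2 unadjusted). After a further quantile normalization prp2 changed by -0.29 and 0 members fell by limma (1 unadjusted). With 1 array left out, 1308 to 2818 probe sets rose and 1082 to 2865 fell. The lowest counts came without CL replicate 3, and counts also moved by over 1.5 times without CL replicate 2 (1840 and 1484), CC replicate 2 (1663 and 1371) and CC replicate 3 (1821 and 1669). In the same fits 5 to 6 members rose and 0 to 1 fell (1 unadjusted), 2 to 3 of the other defence list rose and 0 to 4 fell, and 2 to 3 of the jasmonate and ethylene list rose and 1 to 3 fell. The causes were not tested. The 3 arrays per section and the dim signal of prp2 limit these values.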
